A study of Mus musculus with 4 samples.

Results

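Open chromatin outside genes and far from any transcription start site was examined in posterior mouse forelimb buds, using ATAC-seq. In this assay the Tn5 transposase cuts accessible DNA and inserts sequencing adapters. Merging peaks of the 4 libraries wherever they shared 1 bp or more gave 44692 regions. A region was named far intergenic if its centre lay more than 100 kb from every transcription start site (TSS) of GENCODE M21 (basic set, mm10) and if it overlapped no gene body. There were 377 such regions, 0.844% of all regions. The other regions were promoter regions (17508, overlapping the stretch from 2 kb before a TSS to 1 kb after it), near intergenic regions (8269, outside genes and within 100 kb of a TSS), near genic regions (18079, in a gene body) and far genic regions (459, in a gene body but over 100 kb from a TSS).

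Embryos were wild type (WT, 2 libraries) or Shh-/- (2 libraries), all of the Swiss Webster strain, and were taken at stage E10.5 with 35 somites. Shh-/- embryos carry a null allele of Shh and were compared with embryos that have a working gene. Each library was made from the pair of posterior forelimb fractions of a single embryo, at 5000 cells a reaction and 18 PCR cycles, so the fractions hold every cell type of the posterior bud and not only cells that respond to SHH. Shh-/- buds lack the signal in all cells, and a change in the cells present cannot be told apart from a change within cells. Promoters of limb mesenchyme genes were called for 6 and 4 of 6 genes in WT replicates 1 and 2 and for 2 and 4 in Shh-/- replicates 1 and 2, and Prrx1, a homeobox gene of limb mesenchyme, was called in all of them. The promoter of Tbx5, which marks the forelimb, was called only in WT replicate 1, and so was that of Pitx1, which marks the hindlimb. The promoter of Tbx4, another hindlimb gene, was called by WT replicate 1 and Shh-/- replicate 2, so these promoters do not separate forelimb from hindlimb. Promoters of neural genes were called for 2 of 3 in WT replicate 1 and 1 in Shh-/- replicate 2, those of muscle progenitor genes for 2 and 1 of 2 in WT and 0 and 2 in Shh-/-, and that of 1 of 4 blood genes in WT replicate 1. Promoters of 2 of 5 ectoderm genes and 1 of 4 endothelium genes were called by WT replicate 1 and by Shh-/- replicate 2, and none in the other two libraries.

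The deposited peak lists were unequal in size, with 39080 and 11973 peaks in WT replicates 1 and 2, and 5589 and 18459 peaks in Shh-/- replicates 1 and 2. They hold no read counts. The study's methods state a single sequencing depth for its ATAC-seq, but the depth that each library reached is unknown. A region without a peak in a library was not called there, which does not show that its chromatin was closed. The only strength deposited with a peak is a score, which was used to rank peaks within a list. It is given here as a rank percentile, where a low value is a high score and peaks with the same score share their mean rank. Where values of both libraries of a genotype stand together, that of replicate 1 comes first.

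Distal enhancers are stretches of DNA that bind transcription factors and act on a promoter that can lie far away, through contact within a folded chromosomal domain. Genes that pattern the embryo often stand beside long stretches without protein-coding genes, called gene deserts, in which such enhancers are found. In the limb bud SHH, made by posterior mesenchyme, patterns the digits, and GLI proteins pass on its signal at enhancers. Without SHH these proteins act as repressors.

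Sequence around the summit is shown for far intergenic regions on which the results turn. These are 2 regions called in all 4 libraries, a WT-specific and a Shh-specific region beside the limb genes Bmp7 and Hand2, and a region on an annotated enhancer near Sox9. Each sequence is 200 bp of the plus strand of mm10. Capitals mark matches to any of the motifs searched, which are listed in the next paragraph.
Spata18 to Usp46, called in all 4 libraries, chr5:73782710-73782909: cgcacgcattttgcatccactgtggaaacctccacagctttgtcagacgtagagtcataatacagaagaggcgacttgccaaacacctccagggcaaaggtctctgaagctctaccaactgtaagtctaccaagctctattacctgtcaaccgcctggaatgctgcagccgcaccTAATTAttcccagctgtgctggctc
Dok5 to Cbln4, called in all 4 libraries, chr2:171734541-171734740: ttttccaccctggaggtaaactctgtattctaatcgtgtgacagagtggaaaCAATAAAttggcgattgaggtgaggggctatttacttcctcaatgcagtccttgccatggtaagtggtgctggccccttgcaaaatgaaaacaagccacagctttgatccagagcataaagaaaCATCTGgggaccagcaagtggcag
Tfap2c to Bmp7, WT-specific, chr2:172670864-172671063: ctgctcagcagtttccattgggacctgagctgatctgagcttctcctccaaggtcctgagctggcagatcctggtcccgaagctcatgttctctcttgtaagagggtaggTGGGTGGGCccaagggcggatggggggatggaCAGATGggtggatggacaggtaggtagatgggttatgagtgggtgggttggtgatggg
Fbxo8 to Hand2, Shh-specific, chr8:57134177-57134376: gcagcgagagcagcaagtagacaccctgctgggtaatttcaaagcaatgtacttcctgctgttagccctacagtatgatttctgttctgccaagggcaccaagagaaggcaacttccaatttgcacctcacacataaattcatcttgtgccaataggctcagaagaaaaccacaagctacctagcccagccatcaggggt
Sox9 to Slc39a11, VISTA element mm636, chr11:113014442-113014641: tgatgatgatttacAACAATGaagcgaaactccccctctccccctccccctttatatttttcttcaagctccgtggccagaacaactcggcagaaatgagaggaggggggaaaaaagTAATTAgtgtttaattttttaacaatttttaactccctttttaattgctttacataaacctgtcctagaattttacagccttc

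Motifs were searched on both strands in the 200 bp around each summit, each on its own, so that overlapping matches count for every motif they match. TAATTA, which homeodomain proteins bind, was found in 50 far intergenic regions (13.3%), in 7.62% of near intergenic regions, in 12.9% of far genic regions and in 4.03% of all regions. TTTATTG, bound by posterior HOX proteins, was found in 30 far intergenic regions (7.96%) and in 2.15% of all regions. It was found in 3.33% of near intergenic and 6.32% of far genic regions. Base composition moved with both. Among regions of 40 to 50% GC, TAATTA was found in 14.5% of far intergenic regions and in 10.3% of the other regions outside promoters, and TTTATTG in 9.25% and 4.56%. The E-box CATCTG was found in 26.0% of far intergenic regions and in 15.9% of all, and TGANTCA, the AP-1 site, in 6.90% and 4.16%. In near intergenic regions the E-box was at 21.1% and the AP-1 site at 5.51%, and in far genic regions they were at 21.1% and 5.23%. TGGGTGGTC, bound by GLI proteins, was found with at most 1 mismatch in 15 far intergenic regions (3.98%) and in 5.62% of all regions. Near intergenic regions had this match at 5.64% and far genic regions at 5.45%. Among regions of 40 to 50% GC it was found in 1.73% of far intergenic regions and in 3.64% of the other regions outside promoters. It was found in 1 of the 3 WT-specific regions, the one between Tfap2c and Bmp7 shown above, and in none of the 15 Shh-specific regions. Those 3 regions are all richer in GC than the 15, so these few counts do not compare the genotypes. CATTGTT (SOX proteins) was found in 2.65% of far intergenic regions, AGGTGTGA (T-box proteins) in 0.531% and the CTCF core in 0.265%, where all regions had 1.69%, 0.935% and 0.848%. TGATTGAC (PBX and MEIS proteins) was found in 0.531% of far intergenic regions and in 0.423% of all regions. These shares are descriptions, with no test.

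Most far intergenic regions were called in a single library. WT replicate 1 called 263 of the 377 (69.8%, 86.7% of all regions), WT replicate 2 called 28 (7.43%, 25.9% of all), Shh-/- replicate 1 called 67 (17.8%, 12.2% of all) and Shh-/- replicate 2 called 161 (42.7%, 40.5% of all). Both WT libraries therefore called a smaller share of far intergenic regions than of all regions, and both Shh-/- libraries a larger share, although the interval for Shh-/- replicate 2 (37.8 to 47.7%, 95% Wilson) includes its value over all regions. In near intergenic regions these shares were 81.5%, 13.4%, 9.54% and 29.7%. Of the far intergenic regions 280 were called in 1 library, 58 in 2, 33 in 3 and 6 in all 4 (1.59%, 7.97% of all regions). The 97 called in 2 or more libraries made up 25.7% (35.8% of all regions, 22.1% of near intergenic regions and 64.9% of promoter regions). WT replicate 1 alone accounted for 182 regions (48.3%, 51.6% of all regions) and Shh-/- replicate 2 alone for 70 (18.6%, 7.33% of all). Without WT replicate 2, the smaller WT list, 36 regions were called in all of the remaining libraries.

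**Figure D1:**
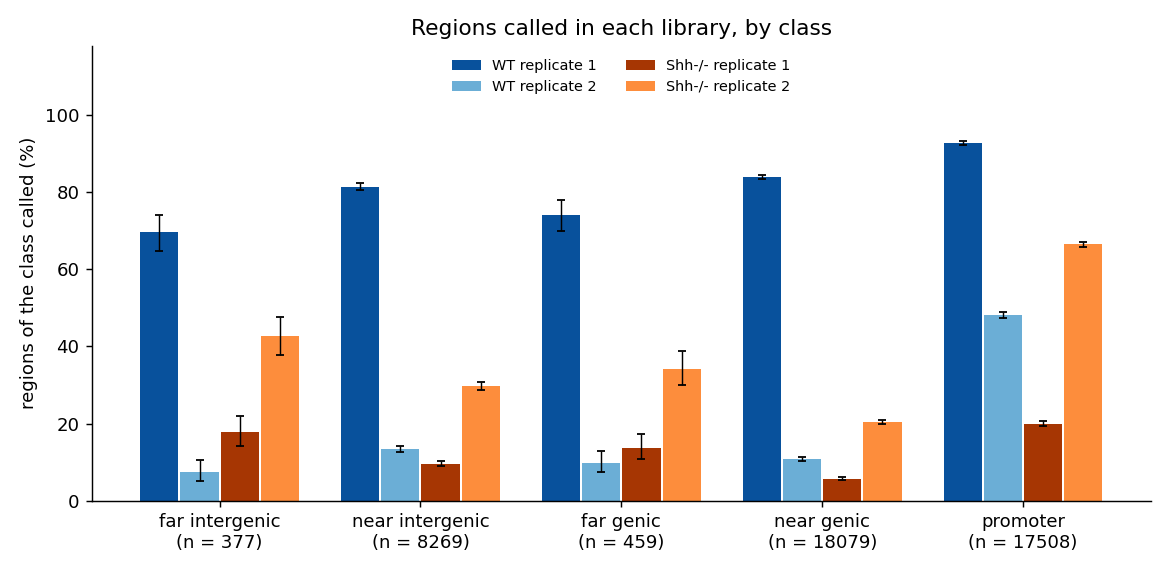
Share of the regions of each class (in %) that was called in each library. Bars are shares, and lines on them are 95% Wilson intervals, which cover counting error only. Shares of far intergenic regions ran from 69.8% in WT replicate 1 down to 7.43% in WT replicate 2 and lay under those of promoter regions, though in Shh-/- replicate 1 the interval (14.2 to 22.0%) includes the value of promoter regions.

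The 2 libraries of a genotype overlapped to different extents. Of the 67 far intergenic regions of Shh-/- replicate 1, 51 (76.1%) were also called in Shh-/- replicate 2, which was 31.7% of the regions of the latter. Of the 28 regions of WT replicate 2, 12 (42.9%) were also called in WT replicate 1, which was 4.56% of its regions. Over all regions 82.6% of WT replicate 2 was called in WT replicate 1 and 87.3% of Shh-/- replicate 1 in Shh-/- replicate 2.

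To ask whether far intergenic open chromatin differed with the loss of Shh, the genotypes were compared over libraries. Far intergenic peaks made up 0.673% and 0.242% of the WT lists and 1.20% and 0.872% of the Shh-/- lists. Both Shh-/- libraries stood above both WT libraries, with means of 1.04% ± 0.231 (SD, n = 2) and 0.458% ± 0.305 (SD, n = 2). The exact permutation test over libraries (two-sided) gave p = 0.333, the smallest value that 2 against 2 libraries allow, so the design cannot reach 0.05. Taken as a share of intergenic regions alone, far intergenic regions were 3.76% and 2.46% in WT and 7.83% and 6.14% in Shh-/-. The number of far intergenic regions called per library was 146 ± 166 in WT and 114 ± 66.5 in Shh-/- (SD, n = 2; exact permutation p = 1). This difference turned its direction when single libraries were left out, to 86.0 fewer regions in WT without WT replicate 1 and 15.5 fewer without Shh-/- replicate 1. With each list limited to its 5589 best peaks, the size of the smallest list, the libraries called 13, 3, 67 and 19 of 70 far intergenic regions (WT replicates 1 and 2, then Shh-/- replicates 1 and 2; exact permutation p = 0.333). There the order again had both Shh-/- libraries above both WT libraries.

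Far intergenic peaks sat in the lower part of the score lists. Their median rank percentile was 55.3 and 91.1 in the WT lists and 59.2 and 64.7 in the Shh-/- lists. Promoter peaks had medians of 26.9, 38.1, 40.7 and 38.0 in the same order. Near intergenic peaks had the same median as far intergenic peaks in 3 of the libraries (55.3, 59.2 and 64.7) and a median of 68.3 in WT replicate 2. Only 6, 0, 2 and 3 far intergenic peaks were among the best 10% of their lists. The median rank percentile differed between the genotypes by 11.2 (73.2 ± 25.3 in WT, 61.9 ± 3.83 in Shh-/-, SD, n = 2; exact permutation p = 1), and the difference became -6.61 without WT replicate 2.

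**Figure D2:**
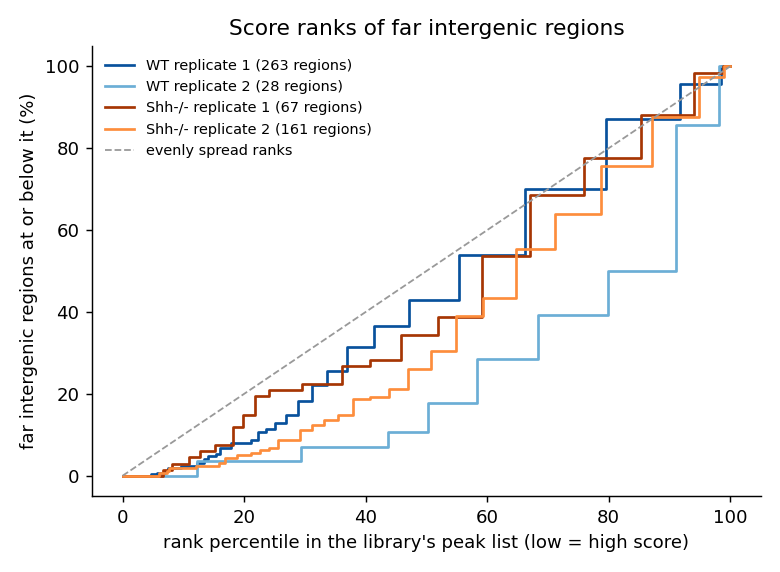
Cumulative share of the far intergenic regions called in a library (in %, vertical axis) against their rank percentile in that library's list (horizontal axis, low values are high scores), with a line for each library and a dashed line for evenly spread ranks. The line of WT replicate 2 lies farthest to the right, with a median of 91.1, and steps in the lines are peaks with the same score.

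The best ranked far intergenic regions are named by the genes on either side, whose functions were not compared with those of other genes. The region with the lowest mean rank percentile among those called in all 4 libraries lay between Spata18 and Usp46, a deubiquitinase gene, at chr5:73781868-73783287. It was 125 kb from the nearest GENCODE TSS. Its peak had a rank percentile of 7.50 and 29.3 in WT and of 18.1 and 12.1 in Shh-/-, so it was high in every list. Between Dok5 and Cbln4, a region of 1326 bp ranked at 13.4 and 91.1 in the WT libraries and at 6.58 and 7.65 in the Shh-/- libraries. It stood near the top of both Shh-/- lists and near the bottom of the list of WT replicate 2.

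Further regions called in all 4 libraries lay between Tfap2c and Bmp7, between Gsc and Dicer1 and between Fat4, a protocadherin gene, and Intu. The region beside Gsc, a homeobox gene, ranked at 16.1, 91.1, 15.2 and 29.2 (WT replicates 1 and 2, then Shh-/- replicates 1 and 2), and the region beside Fat4 at 31.1, 91.1, 67.1 and 33.1. In WT replicate 2 both peaks had a score of 20 and lay near the end of the list. The best mean rank of any far intergenic region called in 2 or more libraries, 9.83, was that of a region between Cdh11, a cadherin gene of mesenchyme, and Cdh5, at chr8:102983059-102984369. It ranked at 15.3 in WT replicate 1 and at 8.20 and 5.95 in the Shh-/- libraries, and WT replicate 2 had no peak there. This region and the next were named after their values were seen. A region between Fstl5 and Rapgef2 had the best rank of a far intergenic peak in WT replicate 1, 4.60, with 11 and 16.9 in the Shh-/- libraries.

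Regions called in both libraries of one genotype and in neither of the other were few. There were 3 WT-specific regions (0.796%, 2.09% of all regions) and 15 Shh-specific regions (3.98%, 0.396% of all regions). Near intergenic regions held 142 WT-specific (1.72%) and 65 Shh-specific regions (0.786%), and far genic regions held 4 (0.871%) and 9 (1.96%). Each count rests on the smaller list of its genotype. The WT-specific count was 19 without WT replicate 1, 185 without WT replicate 2 and 6 without Shh-/- replicate 2. The Shh-specific count was 45 without WT replicate 1, 85 without Shh-/- replicate 1 and 28 without Shh-/- replicate 2. At equal list size the WT-specific count was 0 and the Shh-specific count 9.

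The best ranked Shh-specific region lay 187 kb from Hand2, in the gap between Fbxo8 and Hand2 at chr8:57133940-57134586. Hand2 encodes a basic helix-loop-helix factor of the posterior limb mesenchyme that acts upstream of Shh. The peak ranked at 18.1 and 22.6 in the Shh-/- lists, and neither WT list held a peak there. The promoter of Hand2 was called only in WT replicate 1, the largest list, which called 92.8% of promoter regions. It was called neither in WT replicate 2 nor in Shh-/-, so it shows no direction by genotype. The next Shh-specific regions lay between Ttll7 and Adgrl2, a latrophilin gene (ranks of 52.0 and 38.0), between P3h2 and Cldn1, a tight junction gene (59.2 and 54.8), between Tle4, a corepressor gene, and Psat1 (59.2 and 54.8), and beside Ctnna2, an alpha-catenin gene (67.1 and 50.7). These are middle ranks in both lists. Other Shh-specific regions lay 652 kb from Bmp2, 122 kb from Pax1 and 6.85 kb from Alcam, an adhesion molecule gene. The 3 WT-specific regions lay between Dcc, a netrin receptor gene, and Mex3c (7.50 and 91.1 in WT replicates 1 and 2), between Tfap2c and Bmp7 (66.3 and 58.3) and between Kcnh7 and Fign (79.5 and 79.9). None of these 3 was high in both WT lists.

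GC content moved with these calls. Around the summit the median GC content was 46.5% in far intergenic regions, 51.5% in near intergenic and 62.5% in promoter regions, and the far intergenic DNA they lie in has 38.6% GC. Among far intergenic regions below 40% GC, WT replicate 1 called 58.1%, WT replicate 2 called 1.35%, Shh-/- replicate 1 called 37.8% and Shh-/- replicate 2 called 59.5%. From 55% GC upwards the shares were 81.8%, 20%, 10.9% and 30.9%. Within each library the share thus moved with GC content, higher in the GC-rich than in the AT-rich class in both WT libraries and lower in both Shh-/- libraries, while in either class the values of the genotypes overlapped. Of the 15 Shh-specific regions, 8 were below 40% GC, 6 between 40 and 45% and 1 between 45 and 50%. The 3 WT-specific regions were all at 50.5% or more. In regions outside promoters that are not far intergenic there were 8 WT-specific and 56 Shh-specific regions below 40% GC and 258 against 8 from 55% upwards. The part of base composition in the counts of genotype-specific regions was not tested.

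Far intergenic regions were sparse for the DNA they could have come from. Sites over 100 kb from a TSS and outside gene bodies cover 186 Mb, 7.01% of the sequenced genome, and held 2.03 regions per Mb. Near intergenic DNA held 7.06 per Mb and far genic DNA 5.09 per Mb. The density was 2.33 per Mb at 100 to 150 kb from a TSS, 1.99 at 150 to 200 kb, 1.80 at 200 to 300 kb and 0.572 at 300 to 500 kb, where 7 regions lay. The median distance to a TSS was 137 kb. The farthest region lay 477 kb from a TSS, between Bmp2 and Hao1, with a rank percentile of 28.8 in WT replicate 1, the only library that called it. The limit of 100 kb had regions close to it on both sides. The 68 far intergenic regions at 100 to 110 kb included 51 and 7 called by the WT libraries and 8 and 24 called by the Shh-/- libraries. The 98 intergenic regions at 90 to 100 kb included 73 and 11 called in WT and 16 and 39 called in Shh-/-. Only 4 of the 377 regions had mostly multicopy sequence, meaning that over 50% of their 31-base words recur in the genome.

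Gaps between neighbouring protein-coding genes held fewer far intergenic regions per Mb the longer they were. In gaps under 500 kb there were 5.69 per Mb of eligible DNA, in gaps of 500 to 1000 kb 3.02, in gaps of 1000 to 2000 kb 1.46 and in longer gaps 0.706. WT replicate 1 went from 4.21 to 0.443 per Mb, WT replicate 2 from 0.693 to 0, Shh-/- replicate 1 from 0.594 to 0.230 and Shh-/- replicate 2 from 2.08 to 0.459. Every library thus had its highest density in the shortest gaps and its lowest in the longest. Gene deserts of at least 500 kb held 262 regions (69.5%) and 89.1% of the eligible DNA. Of 750 such deserts with eligible DNA, 140 held a far intergenic region.

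**Figure D3:**
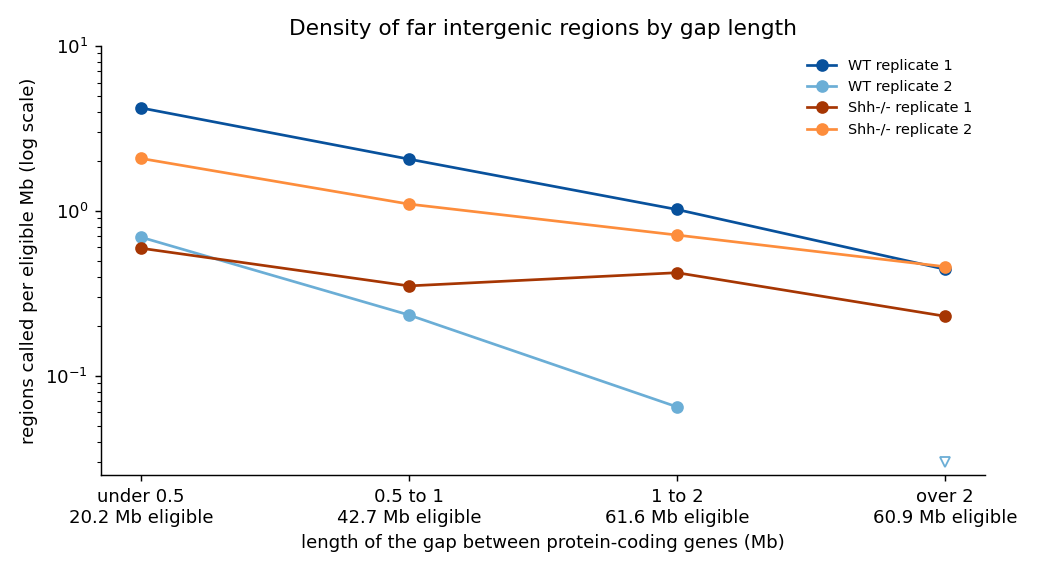
Far intergenic regions called per Mb of eligible DNA (log scale) in gaps between protein-coding genes of 4 length classes, with a line for each library. An open triangle marks a value of 0, that of WT replicate 2 in gaps over 2000 kb. WT replicate 1 fell from 4.21 to 0.443 per Mb and Shh-/- replicate 2 from 2.08 to 0.459.

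The regions were unevenly spread over chromosomes. Chromosome 2 held 63 (16.7%, against 9.42% of all regions), or 4.52 per eligible Mb, and chromosome 7 held 27 in 4.75 Mb, or 5.68 per Mb. Chromosomes 6, 14 and X held 5 each, at 0.542, 0.522 and 0.420 per Mb, and Y held 0. Clusters of at least 3 regions with at most 50 kb between neighbours numbered 22 and held 100 regions (26.5%). Near intergenic regions, which are denser, were in such clusters to 53.5% and far genic regions to 46.2%. Without WT replicate 1 the share of far intergenic regions in clusters was 13.3%. It was 5.71% at equal list size and 6.62% with scores of at least 50. The clusters with most regions lay between Tfap2c and Bmp7 (15), Cdh26 and Cdh4 (9), Sox9 and Slc39a11 (6), Grik3 and Csf3r (6), Ajap1 and A430005L14Rik (5) and Gm6569 and Adgrb1 (5).

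Of 913 gaps with eligible DNA, 194 held a far intergenic region and 43 held 3 or more. The gap between Tfap2c, a transcription factor gene of ectoderm, and Bmp7, a BMP ligand gene of the limb bud, held 15 in 309 kb, the most of any gap. All 15 formed a single cluster of 80.3 kb that lay 127 to 207 kb from Bmp7. In RefSeq, the second annotation read below, they lay 1.34 to 77.3 kb from a TSS. Only 112 kb of this gap was eligible DNA, so the rule of distance limits where they could lie. The gap held 33 regions of any class, of which 18 were outside promoters and not far intergenic. WT replicate 1 called 13 of the 15 far intergenic regions, WT replicate 2 called 3, Shh-/- replicate 1 called 1 and Shh-/- replicate 2 called 4. Of these regions 4 were called in 2 or more libraries. The region called in all 4 libraries, 139 kb from Bmp7, ranked at 7.01, 43.7, 45.9 and 7.34 (WT replicates 1 and 2, then Shh-/- replicates 1 and 2). A region 181 kb from Tfap2c, which WT replicate 1 and Shh-/- replicate 2 called, ranked at 17.8 and 54.8 in them. The peaks of the other members of the cluster had percentiles of 47.2 or more, so that this cluster had few strong peaks. On the same chromosome, the gap between Dok5 and Cbln4 held 5 regions, 4 of them called in 2 or more libraries, and Shh-/- replicate 2 called all 5.

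**Figure D4:**
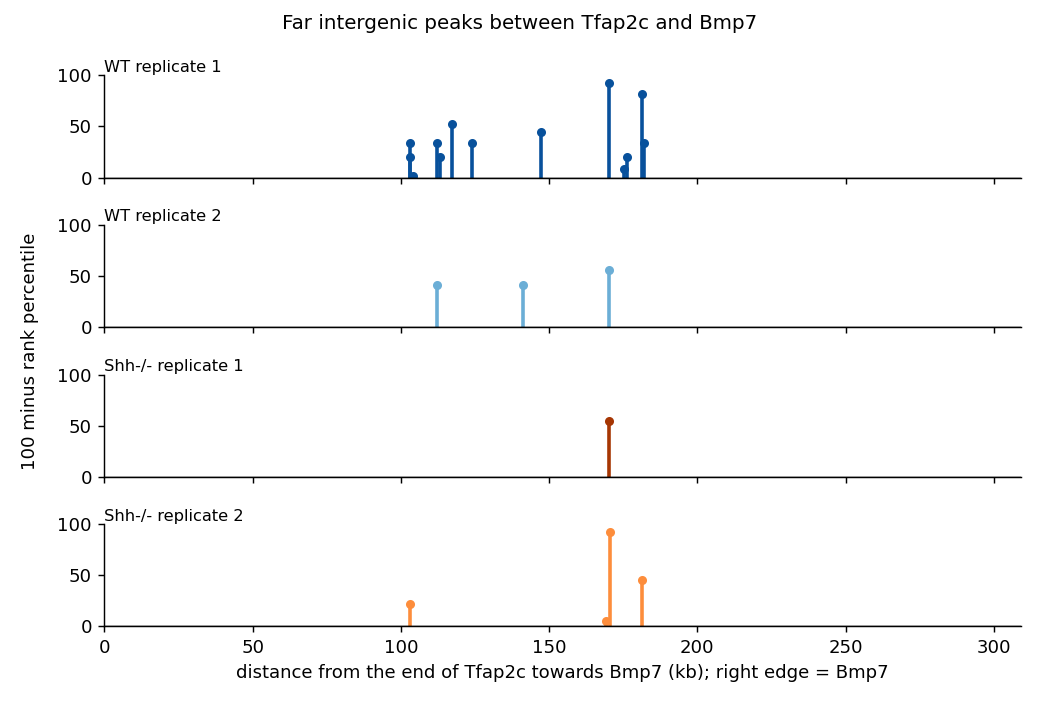
Far intergenic peaks in the 309 kb between Tfap2c and Bmp7, by library. The horizontal axis is the distance from Tfap2c in kb, and the height of a bar is 100 minus the rank percentile, so that tall bars are peaks with high scores. The peak 170 kb from Tfap2c was called in every library.

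Other gaps with many regions depended on single libraries. The gap between Cdh26 and Cdh4, a pair of cadherin genes, held 10 regions, of which WT replicate 1 and Shh-/- replicate 2 called 5 each, with none shared. The gap between Gm6569 and Adgrb1 held 7, all called in WT replicate 1 alone. The gap between Grik3, a glutamate receptor gene, and Csf3r held 6, of which WT replicate 1 called 5. Gaps with 6 or 5 regions also lay between Mterf1b and Fzd1, a WNT receptor gene, between Sel1l and Flrt2, between Ajap1 and A430005L14Rik, between Bbs9 and Bmper, which encodes a BMP-binding protein, and between Epha7 and Map3k7. In these 5 gaps at most 1 region was called in 2 or more libraries. The gap between Eno1b and Dtwd2 held 4, and each was called in both Shh-/- libraries, 3 of them in WT replicate 1 as well.

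Genes of limb development bordered more far intergenic regions per Mb than genes of the other lists. A list of 138 limb genes held 55 that border eligible DNA and 31 that flank a far intergenic region. Gaps with such a gene on either side held 97 regions (25.7%) in 16.0 Mb (8.64% of the eligible DNA), or 6.05 per Mb. Gaps bordered by no gene of any list held 1.94 per Mb, gaps of other developmental transcription factors 1.71 (8 regions), gaps of adhesion and axon guidance genes 0.930 (43 regions) and the gap of a housekeeping gene 0. The ratio of limb gaps to unlisted gaps was 3.15 and 4.44 in the WT libraries and 3.51 and 3.08 in the Shh-/- libraries, so each library showed it. That of WT replicate 2 rests on 9 regions in limb gaps, or 6 without the gap of Bmp7, and 15 in unlisted gaps. Without the gap of Bmp7 the ratios were 2.57, 2.98, 3.35 and 2.79, and over regions called in 2 or more libraries the ratio was 3.56. Limb gaps were of like length (median 727 kb, and 609 kb for unlisted gaps), and in gaps of at least 1000 kb the ratio was 2.84. In gaps under 500 kb it was 10.2, from 0.754 Mb of limb gaps. Of the 97 limb gap regions 1 was WT-specific and 5 were Shh-specific, against 1 and 8 of the 230 regions in unlisted gaps. Over all 377 far intergenic regions the counts were 3 and 15. No test was made on this list, since it was chosen with earlier results of these data known.

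**Figure D5:**
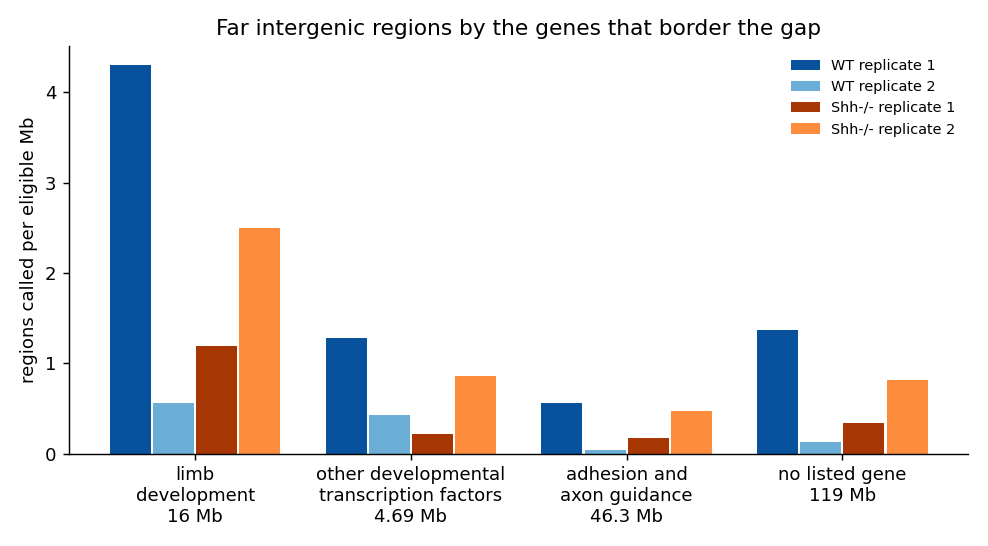
Far intergenic regions called per Mb of eligible DNA, by the list to which a gene bordering the gap belongs, with a bar for each library and the eligible DNA of each list under its name. Gaps of limb genes stood highest in every library, from 4.30 per Mb in WT replicate 1 to 0.561 in WT replicate 2.

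Among ligands and their regulators, Bmp7 flanked 15 regions and Bmp2, another BMP ligand gene, flanked 4. Fgf10, the mesenchymal FGF that keeps the bud growing, flanked 1, called in Shh-/- replicate 2. Jag1, a Notch ligand gene, flanked 1, called in all libraries but WT replicate 2. Hhip, which encodes a protein that binds and limits SHH, flanked 2, both called in WT replicate 1 alone. Of the ephrin receptors, which sort cells of the bud, Epha7 flanked 5 at 695 to 2860 kb and Epha4 flanked 4 at 501 to 1590 kb. The best ranked region of Epha7 lay 140 kb from Map3k7, the gene on the other side of the gap. Ccnd1, a cyclin gene, flanked 4 regions within 106 to 117 kb, of which the WT libraries called 2 each, with none shared. That gap had only 23.1 kb of eligible DNA.

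Among transcription factors, Sox9, which drives cartilage formation, flanked 6 regions on the side of Slc39a11 and 3 on the side of Kcnj2. WT replicate 1 called 7 of these 9, Shh-/- replicate 1 called 2, Shh-/- replicate 2 called 6, and WT replicate 2 called none. The best ranked, at chr11:113014348-113014864 and 227 kb from Sox9, ranked at 28.8 in WT replicate 1 and at 21.8 and 25.6 in the Shh-/- libraries. Sall1, a zinc finger gene of the limb, flanked 4 regions at 339 to 1200 kb, all called in WT replicate 1 alone. Zeb2 flanked 4 at 937 to 3480 kb, and none was called in WT. All were called in Shh-/- replicate 2 and 1 of them in Shh-/- replicate 1 as well. Shox2, a homeobox gene of the proximal limb, flanked 3 within 225 to 233 kb, and Shh-/- replicate 2 called all 3, WT replicate 1 called 2 and Shh-/- replicate 1 called 1. Hand2 flanked 2, neither of them called in WT. Irx1 and Irx2, homeobox genes with the same gap, shared 3, of which WT replicate 1, WT replicate 2 and Shh-/- replicate 1 each called 1. Irx1 flanked 1 more on its other side, called in WT replicate 1.

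Tshz3, a zinc finger gene, flanked 5 regions, 3 towards Zfp536 and 2 towards Zfp507, all called in WT replicate 1 alone. Sox6, which acts with Sox9 in cartilage, flanked 4, of which WT replicate 1 called 3 and Shh-/- replicate 2 called 2. Sox11 flanked 4, of which WT replicate 1 called 3 and Shh-/- replicate 2 called 1. Meis2, a homeobox gene of the proximal limb, and Osr1, a zinc finger gene, flanked 3 each, and 1 of those of Meis2 was called in 2 libraries. Gsc flanked 3, and 2 of them were called in 2 or more libraries. Efna5, an ephrin gene, and Nr2f1, a nuclear receptor gene, flanked 2 each, all called in Shh-/- replicate 2. Those of Efna5 lay at 1090 to 3240 kb and those of Nr2f1 at 1470 to 2540 kb. In all 17 limb genes flanked 3 or more regions. Of the genes with a single region, Fgf10 and Jag1 were named after their values were seen. Flanking does not show that a region acts on that gene.

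RefSeq, read on the same assembly, gave another view of what lies at these regions. It lists 4 of the 377 on annotated enhancers (1.06%), against 1.87% of near intergenic regions. One is named a Hh enhancer of Hhip, at chr8:80314984-80315432 and 257 kb from the gene, and was called in WT replicate 1 alone with a rank percentile of 55.3. Beside Sox9 lie 2 elements of the VISTA enhancer collection, mm636, called in all libraries but WT replicate 2, and mm634, called by WT replicate 1 (66.3) and Shh-/- replicate 2 (94.8). The last is VISTA element mm1296, between Bbs9 and Bmper, called in Shh-/- replicate 2 alone at 78.7. These were picked out for their annotation after their values were seen.

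RefSeq also holds predicted transcripts that the GENCODE basic set does not. By these, 204 of the 377 regions lay within 100 kb of a TSS and 36 overlapped a gene, 34 of these a long non-coding RNA gene, with 8 in an exon and 28 in introns only. The 10 regions between Cdh26 and Cdh4 lay 0.687 to 51.1 kb from a RefSeq TSS. Of the regions called in all 4 libraries, that between Spata18 and Usp46 lay 22.1 kb from a RefSeq TSS. The region between Dok5 and Cbln4 lay 7.66 kb from a RefSeq TSS. Within 1 kb of a RefSeq TSS there were 4, of which the region between Tle4 and Psat1 at chr19:15340123-15341177, at the start of Gm46645, was called in 3 libraries. With both annotations 171 regions stayed over 100 kb from a TSS and outside genes. WT replicate 1 called 111 of these, WT replicate 2 called 11, Shh-/- replicate 1 called 39 and Shh-/- replicate 2 called 85. They held 2 of the 3 WT-specific regions, 7 of the 15 Shh-specific regions and 1 of the 6 called in all 4 libraries.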

How the data were processed

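ATAC-seq of posterior forelimb buds was analysed from 1 deposited peak list per library, for 2 WT and 2 Shh-/- libraries grouped by their titles, which give genotype and replicate. Per the submitters' processing notes the authors used Bowtie2 2.2.5 and MACS2 2.1.0, with mm10 coordinates, and the study's methods give peak calls at a q-value cutoff and a fixed window. Read filters and any shift for Tn5 cuts are not given in the sources used here. Each peak has a position, a summit (the deposited coordinates, in bp) and a score that the authors deposited. By the format of the caller the score is a scaled −log10 of the q-value, but the files do not state this, and it was used only for ranks within a list. Fold, p-value and q-value columns hold 0 throughout. No replicates were pooled, and depth is unknown from the files.

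Peaks were merged, classified and counted with Python 3.11.15, numpy 2.4.6, pandas 2.3.3 and scipy 1.17.1, against GENCODE M21 (basic set) and RefSeq GRCm38.p6. Gaps run between bodies of neighbouring protein-coding genes, and distances to flanking genes are to the gene body. Eligible DNA is sequenced DNA over 100 kb from every TSS and outside gene bodies. Group means were compared over libraries with two-sided exact permutation tests. Shares have 95% Wilson intervals, which cover counting error only. Merging, classification and the permutation test were tested on simulated peaks. WT-specific regions have a peak in each WT library and none in Shh-/-, and Shh-specific regions are the converse.

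Named by rule were the 5 best regions called in all 4 libraries (1 of the 6 is not reported here), the best 5 WT-specific and Shh-specific regions, the 10 gaps with most regions, the 5 largest clusters and limb genes that flank most regions (here those with at least 2, of which 1 is not reported). The regions, gene lists and motifs were chosen with earlier results of these data known.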

Additional observations from a re-analysis of the deposited data

How the results depend on the processing

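Under the alternatives tried, the share of peaks in far intergenic regions kept its direction, higher in Shh-/-, in each. Equal list size, among these, kept the whole list of Shh-/- replicate 1 and shortened the others. The difference in regions called per library (WT minus Shh-/-, 31.5) became -35.0 at equal list size and -18.0 with scores of at least 50, and ranged from -86.0 to 149 when single libraries were left out. The difference in median rank percentile (11.2) became -6.27 with scores of at least 50 and -0.102 with protein-coding genes only, and ranged from -6.61 to 29.1 when single libraries were left out. With the replicate number as a block the differences were 31.5 regions, -0.578 percentage points and 11.2 percentiles, with no call changed, since the smallest p in either fit exceeds 0.05. Nothing in the sources says that equal numbers pair the libraries.

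WT-specific regions (3) numbered 16 at over 50 kb, 0 at equal list size, 0 with scores of at least 50 and 37 with protein-coding genes only, and 3 to 185 when single libraries were left out. Shh-specific regions (15) numbered 29 at over 50 kb, 5 at over 200 kb, 9 at equal list size and 71 with protein-coding genes only, and 15 to 85 without single libraries. Regions called in all libraries (6) numbered 27 at over 50 kb, 1 at over 200 kb, 3 at equal list size, 3 with scores of at least 50 and 77 with protein-coding genes only, and 6 to 36 without single libraries. The share in gene deserts (69.5%) was 49.1% at over 50 kb, 87.9% at over 200 kb, 82.9% at equal list size, 74.2% with scores of at least 50, 59.9% with protein-coding genes only and 35.3% for deserts of at least 1000 kb. The limb to unlisted density ratio (3.12) and its alternatives were added after the data were seen, and it was 10.2 in gaps under 500 kb. The cause of these changes was not tested. Without read counts a region missing from a list cannot be told from a shallow library.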
